A study of Mus musculus with 9 samples.

Results

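The 39 genes described here carry cells from G1 into S phase and copy their DNA. They are the cyclins and kinases of the G1/S transition, 3 E2F factors, and the proteins that load, open, extend and supply the replication fork. Members were taken by gene symbol from a fixed list, through the NCBI gene identifiers of the deposited table, and no measured value is part of that rule, although the list was drawn up with earlier results of these data known. All 39 were found among the 17943 genes of the table, and all 39 passed the count filter that kept 16426 genes for testing.

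RNA-Seq was performed on skin from 5 control mice and 4 *Supt6*-KO mice, harvested on day 10 after the final injection. The *Supt6*-KO mice were K14-CreERT; *Supt6* fl/fl animals given tamoxifen, and the controls were *Supt6* fl/fl animals without the transgene given corn oil, so that both groups carried the floxed allele. The labels call the controls wild-type and the tissue ear, whereas the study's text names dorsal skin, which in the *Supt6*-KO mice was taken from lesions. The groups thus differed in Cre, in tamoxifen and in the sampling of lesions as well as in *Supt6*, and these cannot be told apart here. The K14 promoter drives the inducible Cre in basal keratinocytes, so that their progeny in the upper layers also lose *Supt6*, while cells that do not arise from K14-expressing ones keep it. The mice were injected during the first telogen, their ages at harvest and sexes were not given in the labels, and nothing says that a library was pooled from several mice.

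Summed counts were 29627341 to 30491197 in the controls and 30597189 to 30967107 in the *Supt6*-KO mice. Levels are CPM, the counts of a gene relative to its library size, after scaling by TMM, a factor per library that evens out the bulk of the genes. That factor was 1.2 to 1.31 in the controls and 0.781, 0.674, 0.706 and 0.91 in *Supt6*-KO mice 1 to 4. The scaling therefore carries weight, and results with library totals alone are given beside the counts and sums where they differ. Levels of single mice, and statements on whether the groups overlapped, are on the TMM scale unless library totals are named. A gene "rose" or "fell" where edgeR's quasi-likelihood test gave a Benjamini-Hochberg p under 0.05, adjusted over the 16426 genes. The ± after a log2 fold change is a standard error worked back from the fold change and that test's F statistic (n = 5 and n = 4).

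Entry into S phase begins when D-type cyclins with CDK4 or CDK6, and then E-type cyclins with CDK2, phosphorylate the retinoblastoma protein and release E2F factors, which switch on many replication genes. Origins are licensed when the origin recognition complex, CDC6 and CDT1 load the MCM2-7 helicase, and they fire when CDC45 and the GINS complex join it. In normal epidermis this activity lies in the basal layer and in growing hair follicles, and keratinocytes leave the cycle as they differentiate.

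*Supt6* itself, which encodes the histone chaperone and elongation factor SPT6, served as the check of the labels. *Supt6* was at 74.5, 56.6, 63.6, 91.1 and 96.7 CPM in the controls and 28.6, 24.1, 21.9 and 28.4 CPM in the *Supt6*-KO mice (edgeR log2 fold change -1.57 ± 0.18, adjusted p = 1.29e-05). The highest *Supt6*-KO mouse was well under the lowest control. The log2 fold change was -2.26 with library totals and -0.8 with a trend over transcript length removed, and *Supt6* fell in both.

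The skin identity of the libraries was checked on marker genes. *Krt5*, *Krt14* and *Krt10* were abundant in all 9 mice, so keratinocytes were present in each library. Of 7 basal keratinocyte markers, 6 fell in edgeR's test, among them *Krt5* (-0.86), and *Krt14* (0.66, edgeR adjusted p = 0.0633) did not pass. Their summed level was 11714, 12147, 11643, 13313 and 11841 CPM in the controls and 8402, 5801, 7014 and 14105 CPM in the *Supt6*-KO mice, with *Krt14* the most abundant. In CPM of library totals it was 14567, 14551, 14196, 16493 and 15569 in the controls and 6560.4, 3909, 4952 and 12833 in the *Supt6*-KO mice, so that mouse 4, above every control with TMM, was below every control on that scale. Of the 4 hyperproliferative keratins (*Krt6a*, *Krt6b*, *Krt16* and *Krt17*), all 4 rose, and their summed level was 564, 389, 345, 345 and 274 CPM in the controls and 5513, 2949, 5377 and 22838 CPM in the *Supt6*-KO mice. *Krt17* (1.04) was not called without mouse 4 (0.37), with library totals (0.46) or with the length trend removed (0.6). *Krt17* was also lost without control mouse 2, 3, 4 or 5. With the replicate number as a block 3 of the 4 keratins rose, and the lowest log2 fold change was 0.69. Skeletal muscle markers fell in 6 of 6 and hair matrix and shaft markers in 9 of 9, the latter with a sum that ran from 28.6 to 1483 CPM among the controls. Of 6 suprabasal keratinocyte markers, *Krt1* (3.65) and *Ivl* (1.99) rose, *Lor* (-1.23) fell and 3 did not pass. Fibroblast markers fell in 4 of 6, adipocyte markers in 4 of 5 and endothelial markers in 4 of 4, and none of these rose. Of 7 leukocyte markers *Itgam*, *Lyz2* and *Cd68* rose and the T cell genes *Cd3e* and *Cd3g* fell. *Ptprc*, a marker of leukocytes in general, did not pass, and the B cell gene *Cd79a* was near 0 in both groups. Of the 5 neutrophil markers tested *S100a8* (7.87), *S100a9* (7.78), *Csf3r* and *Cxcr2* rose and *Mpo* fell. Their summed level was 32.2, 42.7, 32.6, 13.9 and 15.5 CPM in the controls and 4559.6, 5157, 6394 and 2512 CPM in the *Supt6*-KO mice, with *S100a9* the most abundant. With library totals 2 suprabasal markers rose and 4 fell, and 6 of 6 fibroblast markers and 5 of 5 adipocyte markers fell. On that scale 1 leukocyte marker rose and 3 fell, and 3 neutrophil markers rose. Of all genes tested 16.9% rose and 54.6% fell with library totals, compared with 34.1% and 36.8% with TMM. Without mouse 4, 3 suprabasal and 4 leukocyte markers rose, against 35.1% of all genes. With the length trend removed 5 of 7 basal, 2 of 6 fibroblast, 5 of 5 adipocyte and 2 of 4 endothelial markers fell. In that fit 3 suprabasal markers rose and 2 fell, against 36.1% and 31.9% of all genes. The share of these shifts in tissue make-up in the results below was not tested, and in whole skin more cells of a type and more RNA per cell cannot be told apart.

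*Supt6*-KO mouse 4 stood apart from the other 3 and bears on many of the values below. It had the highest level of the 4 *Supt6*-KO mice for 37 of the 39 genes (94.9%), compared with 35.4% of all genes tested, and the highest of all 9 mice for 34 of them (87.2%, compared with 19.2%). The median log2 ratio of mouse 4 to the mean of mice 1 to 3 was 0.88 over the 39 genes. Over 24 G2/M genes it was 1.93, and over all genes 0.00. Mouse 4 also had the highest *Krt6a*, *Krt6b*, *Krt16* and *Krt17* sum, the highest *Krt14* (9614 CPM) and the lowest *Krt10* (7775 CPM) of the 9 mice. Its leukocyte and neutrophil marker sums were the lowest of the 4 *Supt6*-KO mice, at 470.1 and 2512 CPM, with *Lyz2* making up 85.3% of the leukocyte sum over the 9 mice. Whether these go with the higher replication genes was not tested. Among the controls, mouse 5 was the highest for 22 of the 39 genes (56.4%) and for 21 of the 24 G2/M genes (87.5%), compared with 28.8% of all genes, and without it 20 of the 39 rose and 3 fell, as with all 9 mice. Values without *Supt6*-KO mouse 4 are given for the calls among the 39 genes that depend on it.

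Of the 39 genes, 20 rose, 3 fell and 16 did not pass the test. *Ccne1* (2.81), *Orc1* (2.08), *Ccne2* (2.01), *Gins1* (1.93) and *Rfc4* (1.93) had the highest log2 fold changes. *Ccnd2* (-2.73), *Cdk6* (-0.95) and *E2f1* (-0.82) were the 3 that fell. By role, all 3 of the E cyclin and CDK2 genes rose. None of the 6 MCM2-7 subunits and none of the 3 chromatin factors passed edgeR's test in either direction.

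Much of the transcriptome was called in this comparison, so these counts are read against all genes. Of the 16426 genes tested, 34.1% rose and 36.8% fell, compared with 51.3% and 7.69% of the 39. The median log2 fold change was 0.65 over the 39 genes and -0.07 over all genes. With a change of at least 2-fold also required, 16 of the 39 rose and 1 fell, against 20.9% and 24.9% of all genes. In 18 of the 39 every *Supt6*-KO mouse lay above every control and in 2 every one lay below, against 28.9% and 31.8% of all genes.

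Without *Supt6*-KO mouse 4, 19 of the 39 rose and 11 fell, and 35.1% and 39.1% of all genes did so. The median log2 fold change was then 0.42 over the 39 genes and -0.12 over all genes. The genes that rose in both fits numbered 19. *Mcm10* was the only one lost, and *Ccnd1*, *Mcm2*, *Mcm3*, *Mcm4*, *Mcm6*, *Lig1*, *Uhrf1* and *Chaf1a* became calls of lower expression. With library totals in place of TMM, the median of all genes moved to -0.76 and that of the 39 to -0.02. In that fit 12 of the 39 rose and 9 fell, against 16.9% and 54.6% of all genes. *Cdk2*, *E2f2*, *E2f8*, *Cdc6*, *Mcm10*, *Pcna*, *Rfc5* and *Tyms* were no longer calls of higher expression, and *Ccnd1*, *Mcm6*, *Mcm7*, *Pola1*, *Lig1* and *Chaf1a* became calls of lower expression. On library totals every *Supt6*-KO mouse lay above every control in 10 of the 39 (*Cdk4*, *Ccne1*, *Ccne2*, *Orc1*, *Orc6*, *Gins1*, *Gins2*, *Prim1*, *Rfc4* and *Tk1*) and below in 3 (*Ccnd2*, *Cdk6* and *E2f1*), against 13.8% and 49.0% of all genes. Library totals lowered all genes by nearly the same amount, so the sign of the smaller changes depended on the scaling.

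**Figure D1:**
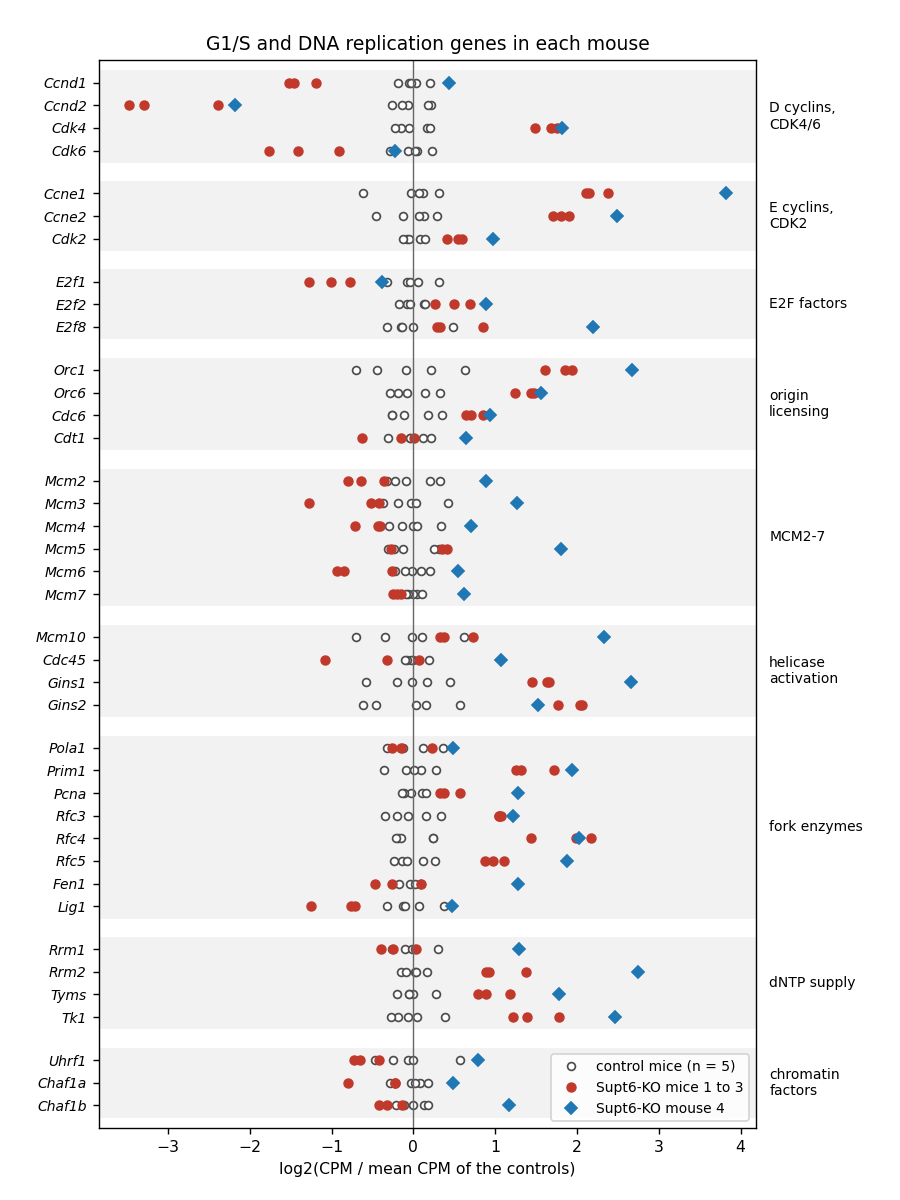
Level of each of the 39 genes in each mouse, as log2 of its CPM over the mean CPM of the 5 controls (horizontal axis), grouped by role. Open circles are controls, red circles *Supt6*-KO mice 1 to 3 and blue diamonds *Supt6*-KO mouse 4, which is the highest of the 9 mice for 34 genes.

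Of the 4 genes for D-type cyclins and their kinases, 1 rose, 2 fell and 1 did not pass. *Cdk4* rose 3.23-fold while its relative *Cdk6* fell to 51.5% of the control mean, and the cyclin *Ccnd2* fell to 15.1%. In GRCm38 *Cdk4* lies at chr10:127063535-127067288 and *Ccnd2* at chr6:127125162-127152188. *Cdk4* was at 90.98, 106, 108, 84.4 and 80.8 CPM in the controls and 264, 301, 318 and 333 CPM in the *Supt6*-KO mice (edgeR log2 fold change 1.69 ± 0.13, adjusted p = 1.32e-06). *Ccnd2* was at 173, 165, 211, 151 and 205 CPM in the controls and 34.6, 18.5, 16.2 and 39.98 CPM in the *Supt6*-KO mice (edgeR log2 fold change -2.73 ± 0.27, adjusted p = 5.86e-06). Neither gene overlapped between the groups, and the 4 *Supt6*-KO mice were close to each other for *Cdk4* but not for *Ccnd2*, where mice 2 and 3 were lowest. *Cdk6* was at 39.6, 31.5, 36.7, 44.9 and 38.8 CPM in the controls and 20.4, 14.4, 11.3 and 32.7 CPM in the *Supt6*-KO mice (edgeR log2 fold change -0.95 ± 0.26, adjusted p = 0.00674). Mouse 4 lay inside the control range of *Cdk6* and the other 3 lay below it. *Cdk6* has a long transcript, and with the trend over length removed it was at 0.09 and not called. *Ccnd1* was at 91.1, 85.8, 87.3, 78.5 and 102 CPM in the controls and 39.03, 31.1, 32.5 and 120.3 CPM in the *Supt6*-KO mice. Mice 1 to 3 were below every control for *Ccnd1* and mouse 4 was above every control, so that no change was called with all 9 mice (edgeR log2 fold change -0.67 ± 0.36, adjusted p = 0.115). Without mouse 4 *Ccnd1* fell, with a log2 fold change of -1.38 (edgeR adjusted p = 2.64e-06).

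E-type cyclins and CDK2, the kinase complex that acts after the D cyclins, rose in 3 of 3. *Ccne1* lies at chr7:38097984-38107490 in GRCm38. *Ccne1* was at 2.97, 2.68, 2.88, 1.78 and 3.41 CPM in the controls and 12.2, 11.9, 14.2 and 38.9 CPM in the *Supt6*-KO mice (edgeR log2 fold change 2.81 ± 0.36, adjusted p = 3.53e-05). *Ccne2* was at 9.57, 11.5, 12.8, 7.63 and 10.9 CPM in the controls and 34.3, 36.6, 39.1 and 58.95 CPM in the *Supt6*-KO mice (edgeR log2 fold change 2.01 ± 0.19, adjusted p = 4.59e-06). For both cyclins every *Supt6*-KO mouse exceeded every control, and the means were 7.03-fold and 4.03-fold higher. Mouse 4 was far above the other 3 for *Ccne1*, and without it the log2 fold change was 2.21. *Cdk2* rose less, by a log2 fold change of 0.65 (edgeR adjusted p = 0.000836), also without overlap, and was at -0.02 with library totals.

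Among the E2F factors, the activator *E2f1* fell while *E2f2*, also an activator, and the atypical repressor *E2f8* rose. *E2f1* was at 8.34, 8.57, 9.22, 7.09 and 10.97 CPM in the controls and 5.18, 3.65, 4.39 and 6.79 CPM in the *Supt6*-KO mice (edgeR log2 fold change -0.82 ± 0.21, adjusted p = 0.00386). All 4 *Supt6*-KO mice were below all 5 controls for *E2f1*, and mouse 4 came within a narrow gap of the lowest control. *E2f8* was at 7.03, 6.24, 7.11, 7.79 and 10.9 CPM in the controls and 9.78, 9.595, 14.1 and 35.9 CPM in the *Supt6*-KO mice (edgeR log2 fold change 1.15 ± 0.37, adjusted p = 0.0147). Mice 1 and 2 lay within the control range of *E2f8*, and without mouse 4 the log2 fold change was 0.51 (edgeR adjusted p = 0.0469). *E2f2* was at 15.7, 14.7, 18.1, 16.2 and 18.3 CPM in the controls and 19.8, 26.7, 23.4 and 30.7 CPM in the *Supt6*-KO mice (edgeR log2 fold change 0.6 ± 0.14, adjusted p = 0.00287). The groups did not overlap for *E2f2*, but its sign depended on the scaling, at -0.08 with library totals.

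E2F factors bind promoters of replication genes, so RefSeq promoter windows (GRCm38.p6, 250 bases before to 50 after each start) were searched for the E2F-type words TTTCCCGC, TTTCGCGC, TTTGCCGC and TTTGGCGC on both strands. Words on opposite strands can overlap in their shared GCGC end. Of the 39 genes, 33 were matched, with 39 windows, and those unmatched were *Ccnd1*, *Ccnd2*, *Ccne2*, *Mcm4*, *Gins1* and *Gins2*. A word was present in 13 of the 39 windows (33.3%) and in 744 of 32851 windows of all genes (2.26%). By call, words were found in 5 of 18 windows of genes that rose (27.8%), in 8 of 19 of genes without a call (42.1%) and in neither window of the 2 matched genes that fell. The CCAAT box (CCAAT on either strand) was in 23 of 39 windows (59.0%) and in 37.4% of all windows. Among other replication genes outside the 39 an E2F-type word was in 13 of 42 windows (31.0%) and a CCAAT box in 18 (42.9%). Among the G2/M genes an E2F-type word was in 1 of 21 windows (4.76%) and a CCAAT box in 19 (90.5%). A match is a run of letters and does not show binding.

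The last 150 bases before the start are shown for 5 of these genes, as examples of promoters with such a word in genes that rose (*Orc1*, *Cdc6* and *Rfc3*) and in genes without a call (*Mcm6* and *Pola1*). Each is written 5′ to 3′ along the gene, with the E2F-type words in capitals. *Orc1* lies at chr4:108579304-108579453 on the forward strand, *Cdc6* at chr11:98908001-98908150 on the forward strand, *Rfc3* at chr5:151651209-151651358 on the reverse strand, *Mcm6* at chr1:128359706-128359855 on the reverse strand and *Pola1* at chrX:93632156-93632305 on the reverse strand. Starts are those of RefSeq, and 32 of the 39 lie in a GENCODE transcript of the same sense, while that of *Mcm6* is among those that do not.
*Orc1*: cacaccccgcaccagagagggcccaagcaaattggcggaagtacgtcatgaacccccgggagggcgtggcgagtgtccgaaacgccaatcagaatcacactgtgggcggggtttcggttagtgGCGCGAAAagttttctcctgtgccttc
*Cdc6*: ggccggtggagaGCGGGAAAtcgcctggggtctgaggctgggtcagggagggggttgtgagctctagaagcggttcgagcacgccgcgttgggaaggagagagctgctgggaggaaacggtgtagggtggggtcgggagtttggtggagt
*Rfc3*: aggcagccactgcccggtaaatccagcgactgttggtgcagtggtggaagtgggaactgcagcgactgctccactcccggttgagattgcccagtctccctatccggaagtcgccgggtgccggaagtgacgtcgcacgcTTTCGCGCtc
*Mcm6*: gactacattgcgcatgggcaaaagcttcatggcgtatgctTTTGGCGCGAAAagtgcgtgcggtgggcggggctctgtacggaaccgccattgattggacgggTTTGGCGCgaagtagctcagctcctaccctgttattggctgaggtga
*Pola1*: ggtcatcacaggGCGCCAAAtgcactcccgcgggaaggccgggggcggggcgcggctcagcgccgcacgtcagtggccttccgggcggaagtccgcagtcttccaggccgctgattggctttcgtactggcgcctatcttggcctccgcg
*Mcm6* holds 3 words, of which 2 overlap, and did not pass the test, and *Orc1*, with 1 word close to its start, rose.

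Origin licensing factors rose in 3 of 4. *Orc1* and *Orc6* encode subunits of the origin recognition complex. *Orc1* was at 1.66, 2.11, 3.49, 1.38 and 2.62 CPM in the controls and 6.89, 8.11, 8.599 and 14.4 CPM in the *Supt6*-KO mice (edgeR log2 fold change 2.08 ± 0.3, adjusted p = 7.91e-05). *Orc6* was at 22.7, 26.4, 29.9, 21.04 and 19.7 CPM in the controls and 56.7, 64.96, 66.7 and 70.7 CPM in the *Supt6*-KO mice (edgeR log2 fold change 1.44 ± 0.14, adjusted p = 4.47e-06). Every *Supt6*-KO mouse was above every control for both, with means 4.22-fold and 2.71-fold higher. *Cdc6*, the ATPase that joins the complex to load the helicase, rose by a log2 fold change of 0.79 (edgeR adjusted p = 0.00193) without overlap, and was at 0.1 with library totals. *Cdt1* was at 7.65, 6.35, 8.55, 7.63 and 9.17 CPM in the controls and 7.897, 5.09, 7.09 and 12.2 CPM in the *Supt6*-KO mice (edgeR log2 fold change 0.04 ± 0.23, adjusted p = 0.881). *Cdt1*, the partner of CDC6 in helicase loading, thus had mice on both sides of the control range, mouse 2 below it and mouse 4 above it.

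None of the 6 subunits of the MCM2-7 helicase, the ring that unwinds DNA at the fork, passed edgeR's test with all 9 mice. Their summed level was 197, 177, 213, 176 and 239 CPM in the controls and 176, 127, 152 and 384 CPM in the *Supt6*-KO mice. Mouse 1 was level with the lowest control sum, mice 2 and 3 were below it and mouse 4 was above the highest, so the mean of the group matched none of the 4 mice. In CPM of library totals, without TMM, the sums were 245, 212, 260.2, 218 and 315 in the controls and 137, 85.4, 107 and 349.6 in the *Supt6*-KO mice, with mice 1 to 3 below every control and mouse 4 above.
*Mcm2* was at 20.8, 17.7, 25.6, 18.96 and 27.8 CPM in the controls and 17.3, 12.7, 14.2 and 41.1 CPM in the *Supt6*-KO mice (edgeR log2 fold change -0.05 ± 0.32, adjusted p = 0.886). *Mcm3* was at 25.8, 20.4, 26.99, 23.2 and 35.3 CPM in the controls and 19.6, 10.8, 18.5 and 63.6 CPM in the *Supt6*-KO mice (edgeR log2 fold change 0.1 ± 0.42, adjusted p = 0.844). *Mcm4* was at 30.8, 25.2, 31.9, 28.2 and 39.1 CPM in the controls and 23.4, 18.9, 22.9 and 50.5 CPM in the *Supt6*-KO mice (edgeR log2 fold change -0.1 ± 0.26, adjusted p = 0.751). In all 3 genes mice 1 to 3 were below every control and mouse 4 was above every control. *Mcm6* was at 57.02, 53.7, 61.3, 49.4 and 65.9 CPM in the controls and 47.8, 29.98, 32.02 and 83.7 CPM in the *Supt6*-KO mice (edgeR log2 fold change -0.25 ± 0.27, adjusted p = 0.419). *Mcm7* was at 40.3, 38.9, 37.2, 36.7 and 42.2 CPM in the controls and 35.2, 34.02, 32.98 and 60.03 CPM in the *Supt6*-KO mice (edgeR log2 fold change 0.05 ± 0.17, adjusted p = 0.79). The same order held for these 2. *Mcm5* was at 22.3, 20.7, 30.4, 19.6 and 28.9 CPM in the controls and 32.3, 20.2, 31.01 and 85.3 CPM in the *Supt6*-KO mice (edgeR log2 fold change 0.79 ± 0.35, adjusted p = 0.0584). *Mcm5* differed from the other 5 in that mice 1 and 3 lay just above the highest control and only mouse 2 fell within their range. *Mcm5* rose under DESeq2 (0.85), with the length trend removed (0.93) and without *Supt6*-KO mouse 2 (1.01).
Without mouse 4, *Mcm2* (log2 fold change -0.59), *Mcm3* (-0.7), *Mcm4* (-0.52) and *Mcm6* (-0.66) fell, with edgeR adjusted p values of 0.0103, 0.0136, 0.00892 and 0.00304, while *Mcm7* (-0.2) and *Mcm5* (0.19) did not pass.

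**Figure D2:**
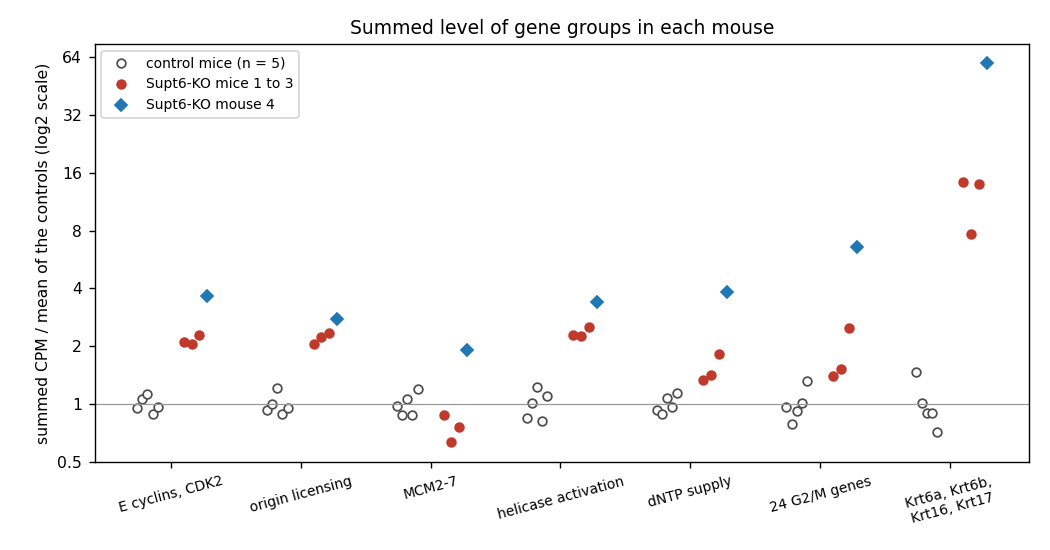
Summed CPM of 5 of the role groups, of 24 G2/M genes and of 4 hyperproliferative keratins in each mouse, divided by the mean of the 5 controls (vertical axis, log2 scale). Open circles are controls, red circles *Supt6*-KO mice 1 to 3 and blue diamonds mouse 4. For MCM2-7 the red circles lie at or below the lowest control and the diamond above the highest, whereas for E cyclins with CDK2, licensing and helicase activation all 4 *Supt6*-KO mice lie above the controls, as they also do with library totals.

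Of the 4 factors that activate the loaded helicase, 3 rose. The GINS subunits *Gins1* and *Gins2* rose 3.82-fold and 3.64-fold. *Gins1* was at 3.72, 4.22, 5.12, 2.52 and 3.28 CPM in the controls and 11.9, 10.3, 11.7 and 23.8 CPM in the *Supt6*-KO mice (edgeR log2 fold change 1.93 ± 0.28, adjusted p = 8.21e-05). *Gins2* was at 5.35, 9.09, 12.1, 5.95 and 8.38 CPM in the controls and 27.9, 33.5, 34.3 and 23.5 CPM in the *Supt6*-KO mice (edgeR log2 fold change 1.86 ± 0.23, adjusted p = 2.7e-05). There was no overlap for either, and *Gins2* was one of the 2 genes among the 39 for which mouse 4 was not the highest *Supt6*-KO mouse. *Mcm10* was at 2.03, 1.59, 2.796, 2.57 and 3.97 CPM in the controls and 3.26, 3.36, 4.299 and 13.004 CPM in the *Supt6*-KO mice (edgeR log2 fold change 1.21 ± 0.42, adjusted p = 0.0234). The rise of *Mcm10*, a fork factor that recruits polymerase alpha, rested on mouse 4, without which the log2 fold change was 0.48 (edgeR adjusted p = 0.138). It was also lost without control mouse 2, with a log2 fold change of 1.08 (edgeR adjusted p = 0.0541). *Cdc45* was at 8.08, 7.94, 7.67, 7.52 and 9.24 CPM in the controls and 8.48, 3.84, 6.49 and 17.03 CPM in the *Supt6*-KO mice (edgeR log2 fold change 0.15 ± 0.33, adjusted p = 0.694). CDC45, the helicase cofactor, was therefore not called, and its *Supt6*-KO mice lay on both sides of the control range.

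At the fork, the primase subunit *Prim1*, the sliding clamp *Pcna* and the clamp loader subunits *Rfc3*, *Rfc4* and *Rfc5* rose, and *Pola1*, *Fen1* and *Lig1* did not pass. *Rfc4* was at 11.3, 15.2, 15.3, 11.6 and 11.2 CPM in the controls and 34.97, 58.1, 51.4 and 52.6 CPM in the *Supt6*-KO mice (edgeR log2 fold change 1.93 ± 0.17, adjusted p = 2.57e-06). *Prim1* was at 18.2, 20.6, 23.5, 15.1 and 19.5 CPM in the controls and 46.05, 48.4, 63.9 and 74.2 CPM in the *Supt6*-KO mice (edgeR log2 fold change 1.59 ± 0.17, adjusted p = 9.62e-06). Both were without overlap, 3.81-fold and 3.00-fold higher in the mean, and mouse 1 was the lowest of the *Supt6*-KO mice for each. *Rfc3* and *Rfc5* rose with log2 fold changes of 1.1 and 1.26 (edgeR adjusted p = 4.33e-05 and 0.000181). *Pcna* rose with 0.69 (edgeR adjusted p = 0.00668), but was at 0.42 without mouse 4 and at 0.05 with library totals. *Pcna*, *Rfc3*, *Rfc4* and *Rfc5* were higher in every *Supt6*-KO mouse than in any control on the TMM scale, and of these only *Rfc4* was so with library totals. Among the loader subunits outside the 39 genes, *Rfc2* (0.94) rose and *Rfc1* (-0.63) fell.
*Pola1* was at 13.8, 12.2, 16.5, 13.9 and 19.5 CPM in the controls and 12.7, 17.8, 13.7 and 21.2 CPM in the *Supt6*-KO mice (edgeR log2 fold change 0.11 ± 0.19, adjusted p = 0.63). *Fen1* was at 18.4, 16.9, 20.2, 19.3 and 20.3 CPM in the controls and 20.4, 13.7, 15.8 and 46.1 CPM in the *Supt6*-KO mice (edgeR log2 fold change 0.34 ± 0.3, adjusted p = 0.333). *Lig1* was at 23.2, 20.2, 26.6, 23.6 and 32.9 CPM in the controls and 15.4, 10.7, 14.9 and 35.1 CPM in the *Supt6*-KO mice (edgeR log2 fold change -0.41 ± 0.3, adjusted p = 0.242). *Pola1*, the catalytic subunit of polymerase alpha, overlapped with the controls. For *Fen1*, the flap endonuclease, and *Lig1*, the ligase that seals Okazaki fragments, mouse 4 was above every control, while mice 1 to 3 were below every control for *Lig1* and 2 of them were for *Fen1*. *Lig1* fell once mouse 4 was left out, with a log2 fold change of -0.9 (edgeR adjusted p = 0.00101).

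Of the enzymes that supply deoxynucleotides, 3 of 4 rose. *Rrm2* was at 23.4, 20.7, 23.5, 21.6 and 25.9 CPM in the controls and 42.5, 43.6, 59.6 and 154 CPM in the *Supt6*-KO mice (edgeR log2 fold change 1.7 ± 0.34, adjusted p = 0.000816). *Tk1* was at 12.97, 14.2, 19.4, 12.3 and 15.3 CPM in the controls and 34.6, 38.9, 50.95 and 82.05 CPM in the *Supt6*-KO mice (edgeR log2 fold change 1.8 ± 0.24, adjusted p = 4.68e-05). *Rrm2*, the small subunit of ribonucleotide reductase that is made in S phase, and *Tk1*, the thymidine kinase of the salvage path, were above every control in all 4 *Supt6*-KO mice, and mouse 4 was far above the other 3 for *Rrm2*. Without mouse 4 the log2 fold change of *Rrm2* was 1.07 (edgeR adjusted p = 2.23e-05). *Tyms*, thymidylate synthase, rose with a log2 fold change of 1.21 (edgeR adjusted p = 0.000181), also without overlap. *Rrm1* was at 57.5, 51.3, 60.98, 62.2 and 75.8 CPM in the controls and 46.8, 51.96, 62.9 and 150.4 CPM in the *Supt6*-KO mice (edgeR log2 fold change 0.34 ± 0.3, adjusted p = 0.33). *Rrm1*, the large subunit of the same reductase, was near or below the control levels in mice 1 to 3 and far above them in mouse 4.

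The 3 replication-coupled chromatin factors did not pass edgeR's test with all 9 mice. *Uhrf1* was at 16.9, 12.7, 17.6, 14.9 and 26.3 CPM in the controls and 11.3, 10.7, 13.2 and 30.6 CPM in the *Supt6*-KO mice (edgeR log2 fold change -0.1 ± 0.32, adjusted p = 0.788). *Chaf1a* was at 13.8, 11.6, 14.9, 14.3 and 16.02 CPM in the controls and 12.1, 8.11, 12.1 and 19.7 CPM in the *Supt6*-KO mice (edgeR log2 fold change -0.12 ± 0.22, adjusted p = 0.655). *Chaf1b* was at 9.76, 9.09, 10.7, 8.46 and 11.1 CPM in the controls and 8.8999, 7.34, 7.82 and 22.02 CPM in the *Supt6*-KO mice (edgeR log2 fold change 0.23 ± 0.3, adjusted p = 0.5). UHRF1 guides maintenance DNA methylation and CHAF1A with CHAF1B deposits histones behind the fork, and in all 3 genes mouse 4 alone exceeded every control. Without it, *Uhrf1* (-0.6, edgeR adjusted p = 0.0282) fell and *Chaf1a* (-0.4, edgeR adjusted p = 0.05) passed just under the threshold, while *Chaf1b* was at -0.3.

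**Figure D3:**
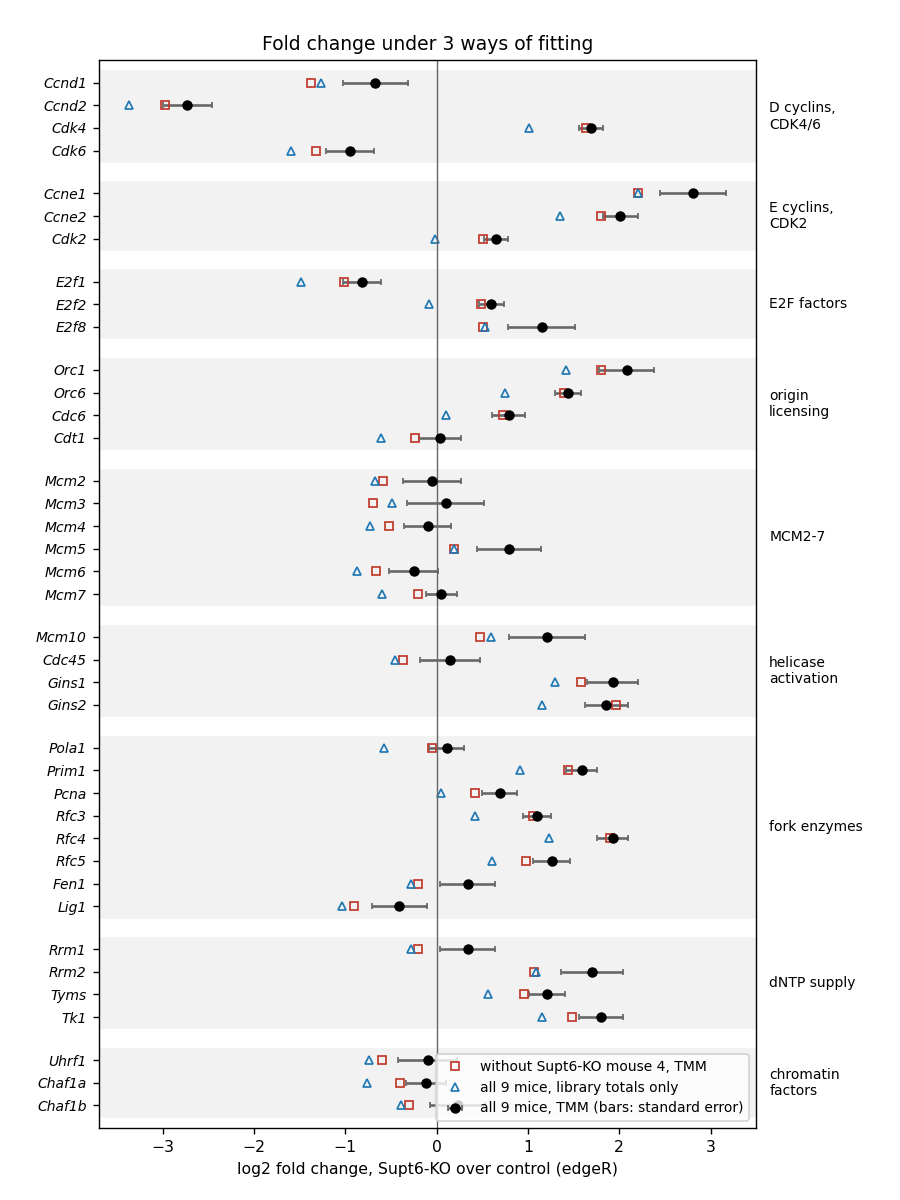
Log2 fold change of each gene, *Supt6*-KO over control (horizontal axis), under TMM with all 9 mice (black, bars are standard errors), without *Supt6*-KO mouse 4 (red squares) and with library totals only (blue triangles). The 4 MCM genes *Mcm2*, *Mcm3*, *Mcm4* and *Mcm6* move from between -0.25 and 0.1 to between -0.70 and -0.52 without mouse 4, and library totals shift every gene to lower values.

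Levels can be compared between genes only per length, for which the TPM values deposited for the 5 controls were used. *Pcna*, at 209 ± 11.6 TPM (SD, n = 5), and *Cdk4*, at 135 ± 5.95 TPM, were the most abundant of the 39, with *Ccnd2* at 52.9 ± 11.3 TPM and *Ccnd1* at 40.9 ± 8.65 TPM next, with ranges of 1 SD that overlapped. *Orc1* (1.32 ± 0.491 TPM), *Mcm10* (1.33 ± 0.622 TPM) and *Cdc6* (1.45 ± 0.436 TPM) were lowest and differed from each other by less than their spread. In control skin *Ccne1* was at 2.69 ± 0.806 TPM and *Ccne2* at 6.09 ± 1.15 TPM. Within the MCM2-7 ring, whose subunits are used in equal number, the control levels ran from 11.7 ± 3.43 TPM for *Mcm2* to 34.2 ± 7.21 TPM for *Mcm6*.

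Ratios of related genes inside 1 library do not depend on the scaling between libraries. Of 8 such log2 ratios, 6 separated the groups without overlap, each with a two-sided exact permutation p = 0.0159 (0.0212 after Benjamini-Hochberg adjustment over the 8), the smallest value that 5 mice against 4 allow. The pairs were chosen with earlier results of these data known, so these p values only describe the separation. The log2 ratio of *Cdk4* to *Cdk6* was 1.2, 1.75, 1.56, 0.91 and 1.06 in the controls and 3.69, 4.38, 4.81 and 3.35 in the *Supt6*-KO mice, a difference of 2.76. The log2 ratio of *Rrm2* to *Rrm1* was -1.29, -1.31, -1.38, -1.53 and -1.55 in the controls and -0.14, -0.25, -0.08 and 0.04 in the *Supt6*-KO mice, a difference of 1.3. In this ratio mouse 4 lay close to the other 3, although both genes were far higher in it. The ratios are not free of transcript length, and with the length trend removed the log2 fold changes were 1.44 for *Cdk4* and 0.09 for *Cdk6*, and 1.51 for *Rrm2* and 0.93 for *Rrm1*, so that both pairs lay closer together.
*Cdt1* to *Gmnn*, the licensing factor against geminin, its inhibitor, was -0.26, -0.83, -0.56, -0.15 and 0.07 in the controls and -2.6, -3.43, -3.41 and -2.84 in the *Supt6*-KO mice, a difference of -2.72. Here the 4 *Supt6*-KO mice were all far below the controls, and *Gmnn* was the gene that had risen (2.73). With the length trend removed *Cdt1* was at -0.01 and *Gmnn* at no more than 1.99, so that this pair also lay closer together. The ratios of *Ccnd1* to *Ccnd2*, *Mcm10* to *Mcm2* and *Ccne1* to *Ccne2* differed by 1.9, 1.21 and 0.65. *E2f1* to *Rb1* differed by -0.13 (exact permutation p = 0.429) and *Mcm2* to *Mki67*, a general proliferation marker, by -0.57 (exact permutation p = 0.159), and the groups overlapped in both.

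**Figure D4:**
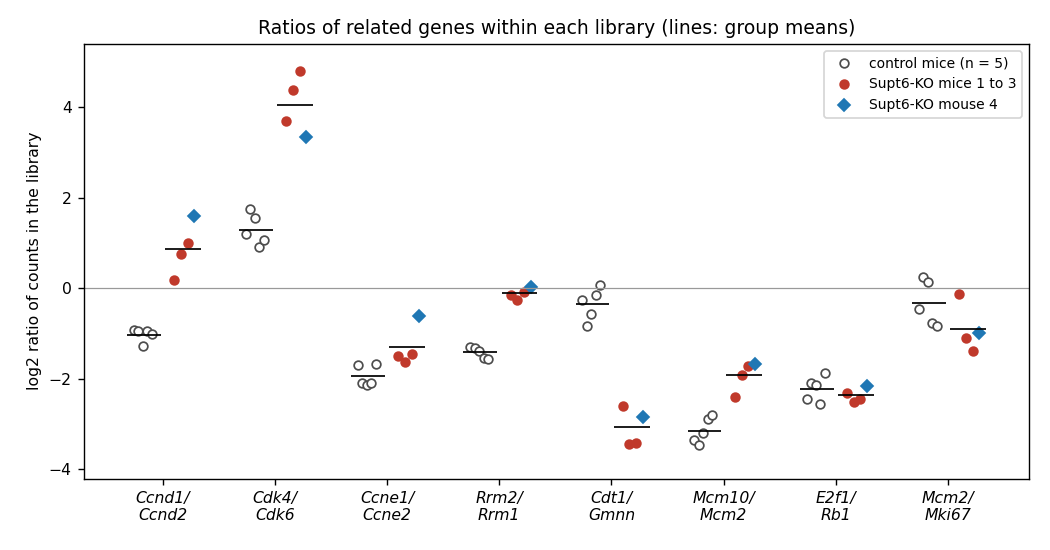
Log2 ratio of 8 pairs of related genes within each library (vertical axis), for 5 controls (open circles), *Supt6*-KO mice 1 to 3 (red) and mouse 4 (blue diamonds), with group means as lines. The groups are separate for the first 6 pairs and overlap for *E2f1*/*Rb1* and *Mcm2*/*Mki67*.

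Fold changes went with transcript length in these libraries, and the 39 genes were no exception. Across all 16368 genes with a length the slope was a log2 fold change of -1.77 for each log10 of length (r = -0.28 across genes, which are not independent replicates), and across the 39 it was -2.85 (r = -0.54). The median of the longest transcripts was 3010.0 bases for the 20 that rose, 3462.5 bases for the 16 without a call and 6330.0 bases for the 3 that fell. Of these 3, *E2f1* had only 2755.0 bases. With the trend over length removed in each library, 23 of the 39 rose and 2 fell, against 36.1% and 31.9% of all genes. The slope was then 0.09 across all genes but still -1.0 across the 39 (r = -0.22). *Cdk6*, with a transcript of 11525.0 bases, then lost its call, as given above, and *Pcna* was at 0.21 and no longer called. *Mcm5*, *Pola1*, *Rrm1* and *Chaf1a* became calls of higher expression, at 0.93, 0.69, 0.93 and 0.74. The part that length plays in the remaining differences was not tested.

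The rest of the pathway was read from lists of related genes. Of 43 other replication genes 29 rose and 4 fell, with a median log2 fold change of 0.94, against 34.1% and 36.8% of all genes. With library totals 16 rose and 8 fell, with a median of 0.28, against 16.9% and 54.6% of all genes. Without mouse 4, 26 rose and 7 fell, with a median of 0.65, against 35.1% and 39.1% of all genes. The largest changes were those of *Gmnn* (2.73), the single-strand binding subunit *Rpa3* (2.57), the firing kinase partner *Dbf4* (2.13) and the clamp-associated factor *Pclaf* (2.13). With the length trend removed the highest log2 fold change in this list was 2.04. *Gmnn* was at 9.15, 11.3, 12.7, 8.44 and 8.76 CPM in the controls and 47.9, 55.1, 75.4 and 87.9 CPM in the *Supt6*-KO mice, all of them above the highest control. The 4 that fell, named here after their values were seen, were the large polymerase subunits *Pold1* (-0.64) and *Pole* (-1.0), the large clamp loader subunit *Rfc1* (-0.63) and the maintenance methyltransferase *Dnmt1* (-1.01). No gene of this list fell once the length trend was removed, compared with 31.9% of all genes. *Pold1* and *Pole* were not called once *Supt6*-KO mouse 1, 2 or 3 was left out. The lowest log2 fold change among the polymerase genes was then -0.92, -0.85 and -0.93.

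Among 24 other G1/S regulators 12 rose, 7 fell and 5 did not pass, with a median log2 fold change of 0.92, against 34.1% and 36.8% of all genes. With library totals 6 rose and 8 fell, with a median of 0.23. In that fit 16.9% of all genes rose and 54.6% fell, with a median of -0.76. *Cks1b* (2.42), a CDK-binding subunit, *Ccna2* (1.64), the S-phase cyclin, and the repressor *E2f5* (1.55) were among the largest changes. Of the pocket proteins, *Rb1* (-0.7) and *Rbl2* (-0.53) fell and *Rbl1* (1.21) rose. With the length trend removed *Rb1* was at -0.28 and *Rbl2*, at -0.04, was not called, and with library totals *Rbl1*, at 0.55, was not. Of the CDK inhibitors, *Cdkn1a* (-0.58) and *Cdkn1c* (-1.44) fell, *Cdkn1b* (0.86), *Cdkn2c* (0.98) and *Cdkn2d* (1.32) rose, and *Cdkn2b* (0.61, edgeR adjusted p = 0.0508) did not pass. Without mouse 4 *Cdkn2b* rose (0.84), and with library totals *Cdkn1b* (0.15) and *Cdkn2c* (0.26) were not called. *Cdkn2a* passed on 2 to 4 counts per *Supt6*-KO library and at most 1 per control library, so no fold is given for it. Inhibitors of the kinases therefore moved both ways, as the cyclins and kinases themselves did.

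Of 24 G2/M genes 13 rose and none fell in edgeR's test, with a median log2 fold change of 1.31, against 34.1% and 36.8% of all genes. With library totals 10 rose, against 16.9% of all genes, with a median of 0.70. With the length trend removed 20 rose, against 36.1% of all genes. *Cenpa* (3.68), the centromeric histone, *Birc5* (2.98), *Aurka* (2.48) and *Ccnb1* (2.45) changed most. *Mki67* (0.47) and *Top2a* (0.57) did not pass. The summed G2/M level was 264, 216, 251, 277 and 361 CPM in the controls and 382, 416, 682 and 1796 CPM in the *Supt6*-KO mice, so mouse 4 was far above the other 3 and mice 1 to 3 were still above every control. In CPM of library totals, without TMM, the sums were 329, 259, 306, 343 and 474 in the controls and 298, 280.2, 482 and 1634 in the *Supt6*-KO mice, where mice 1 and 2 lay within the control range. Without mouse 4 the median of the list was 0.60, 13 genes rose and 2, *Foxm1* (-1.42) and *Kif23* (-1.09), named after their values were seen, fell, against 35.1% and 39.1% of all genes.

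The summed level of the 39 genes was 1104, 1094, 1264, 1036 and 1243 CPM in the controls and 1357, 1320.1, 1454 and 2476 CPM in the *Supt6*-KO mice, each *Supt6*-KO mouse above each control. In CPM of library totals alone it was 1373, 1310.5, 1541, 1284 and 1634 in the controls and 1059.9, 889.5, 1026 and 2253 in the *Supt6*-KO mice, with mice 1 to 3 below every control and mouse 4 above, so that the direction for mice 1 to 3 turned with the scaling. Set against the summed level of *Krt5* and *Krt14*, keratins of the basal layer where most skin replication lies, it was 144, 130.04, 159, 123 and 164 per 1000 in the controls and 183, 271, 242 and 186 per 1000 in the *Supt6*-KO mice. On this scale mouse 4 no longer stood apart from the other 3 for the 39 genes, with mice 2 and 3 the highest. For the G2/M genes the same ratio was 34.4, 25.7, 31.7, 32.9 and 47.5 per 1000 in the controls. In the *Supt6*-KO mice it was 51.4, 85.4, 113.6 and 135.2 per 1000, with mouse 4 the highest. The ratio is free of the scaling between libraries, but *Krt5* itself fell (-0.86) and *Krt14* (0.66) did not pass in edgeR's test.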

How the data were processed

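Poly(A) libraries of mouse skin were sequenced as paired 100-base reads. The authors aligned them to mm10 with Bowtie2 2.3.4.3 and deposited the estimated counts that RSEM 1.3.1 gave for each gene, not normalized between mice, with TPM values per transcript length for the 5 controls and Supt6-KO mouse 4 alone. The submitters' notes also name HISAT and DESeq2 1.4.5 without giving their role. The annotation release is not given in the sources used here.

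Gene identifiers were matched to symbols for 17917 of 17943 genes. Between 8.39% and 9.55% of the estimated counts per mouse were not whole, and all were rounded. Among the 39 genes 32 had whole counts in every mouse, and Ccnd1, Cdk6, Ccne2, E2f1, Rfc4, Rrm1 and Tyms did not, so reads shared with other genes may enter their values. Genes with a sum under 10 counts over the 9 mice were left out. The groups were compared with edgeR 4.0.16 (R 4.3.3), TMM factors, the quasi-likelihood test without covariates and Benjamini-Hochberg adjustment over 16426 genes. Alternatives were DESeq2 1.42.0, scaling by library totals or by upper quartiles, 3 other count filters, leaving out the top 50 genes by abundance, the replicate number as a block, an offset for length (lowess span 0.3, for genes with a GENCODE M21 transcript) and the omission of each mouse. Ratios used counts + 0.5 and a two-sided exact permutation test over mice. Python 3.11.15, pandas 2.3.3 and scipy 1.17.1 were used for the tables. The fits were also run on simulated counts with few changed genes, as many higher as lower, or with a trend over length. Those settings do not test the scaling between libraries. Depth limits the precision of low genes, a count of 3 being the floor in a library, for counting error only.

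The 39 genes, the other lists and the tests were chosen with earlier results of these data known. Values in every mouse are given for Supt6, for the 2 called genes of each role with the largest absolute log2 fold change, and for every gene that fell or did not pass. From the other lists the 4 largest called changes, all CDK inhibitors and pocket proteins, the tissue markers and the genes of the ratios are named. Mice are the replicates. Their numbers, taken from the sample titles, share no source across groups that the labels or methods name.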

Additional observations from a re-analysis of the deposited data

Results flagged for a closer look

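The level of Supt6-KO mouse 4 lay far from the other 3 Supt6-KO mice in 12 of the 80 groups examined (39 genes and Supt6, each in 2 groups). A rate of 1 in 20 would flag 4 if the groups were independent. They are not, since all genes were measured in the same mice, so the 12 are not separate events and were not compared with chance. A value was flagged where its gap to the nearest other mouse of its group exceeded the 95% critical value of Dixon's test, as a share of the whole range. All 12 were high values in mouse 4. They were 120.3 CPM for Ccnd1, 38.9 CPM for Ccne1, 41.1 CPM for Mcm2, 63.6 CPM for Mcm3, 50.5 CPM for Mcm4 and 60.03 CPM for Mcm7. The others were 13.004 CPM for Mcm10, 23.8 CPM for Gins1, 150.4 CPM for Rrm1, 154 CPM for Rrm2, 30.6 CPM for Uhrf1 and 22.02 CPM for Chaf1b. The gap was largest for Mcm7, at 0.919 of the range, and smallest for Mcm3, at 0.833. No control mouse was flagged for any of these genes or for Supt6.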

How the results depend on the processing

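The 20 genes that rose and the 3 that fell kept their calls under DESeq2, upper-quartile factors, the other 3 filters on low counts and the removal of the 50 most abundant genes, and under DESeq2 Mcm5 also rose. Calls depended on the scaling, on Supt6-KO mouse 4 and on transcript length. With library totals 12 of the 39 rose and 9 fell, and of all genes 16.9% (2771) rose and 54.6% fell. Other replication genes then rose in 16 and fell in 8, and other G1/S regulators rose in 6 and fell in 8. With at least a 2-fold change 1 of the 39 fell and 3427 of all genes rose. With the length offset 20 G2/M genes rose and no other replication gene fell (0), while 36.1% of all genes rose and 31.9% fell. Leaving out each mouse in turn gave 19 to 21 of the 39 higher and 3 to 11 lower, 2 to 7 other replication genes lower and 0 to 2 G2/M genes lower. The highest of these counts of lower genes came without Supt6-KO mouse 4. Other replication genes lower numbered 2 without Supt6-KO mouse 1, 2 or 3, where Pold1 and Pole were not called. The ratio of Mcm2 to Mki67 ran from -0.83 to -0.41, and passed without Supt6-KO mouse 1 (-0.83, exact permutation test, adjusted p = 0.0408).

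Direction changed for genes without a call and for Cdk6, Cdk2 and E2f2, which had been called. Cdk6 had been lower at -0.95, and Cdk2 (0.65) and E2f2 (0.6) had been higher. With library totals the log2 fold changes were -0.02 for Cdk2, -0.08 for E2f2, -0.61 for Cdt1, -0.49 for Mcm3, -0.60 for Mcm7, -0.46 for Cdc45, -0.58 for Pola1, -0.28 for Fen1, -0.28 for Rrm1 and -0.39 for Chaf1b. With the length offset they were 0.09 for Cdk6, -0.01 for Cdt1, 0.11 for Mcm2, 0.09 for Mcm4, 0.09 for Mcm6, -0.06 for Cdc45, 0.09 for Uhrf1 and 0.74 for Chaf1a. Mcm2 was at 0.01 with DESeq2, Cdt1 at -0.01 with at least 10 counts in every mouse, and upper-quartile factors gave -0.05 for Cdt1, 0.00 for Mcm3 and -0.04 for Mcm7. Over the mice left out the ranges were -0.24 to 0.19 for Cdt1, -0.59 to 0.11 for Mcm2, -0.70 to 0.35 for Mcm3, -0.52 to 0.04 for Mcm4, -0.20 to 0.14 for Mcm7, -0.37 to 0.39 for Cdc45, -0.05 to 0.21 for Pola1, -0.20 to 0.51 for Fen1, -0.20 to 0.52 for Rrm1, -0.60 to 0.09 for Uhrf1, -0.40 to 0.04 for Chaf1a and -0.30 to 0.38 for Chaf1b. The cause was not tested.

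The replicate numbers of the labels did not pair the mice. Deviations from the group means correlated by 0.08 on average for the same number (-0.01 to 0.16 over 4 pairs) and by -0.02 over 16 pairs of other numbers. With the number as a replicate block 20 of the 39 rose and 3 fell, all with the same call as without it, and Mcm3 moved to -0.11.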
